A study of Capra hircus with 198 samples.

Results

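The genes described here are 9 goat genes of central nervous myelin: MBP, MOBP, MAG, MOG, CLDN11, OPALIN, CNP, ERMN and MYRF. They were chosen by name as myelin and oligodendrocyte genes, and all 9 had a row in a count table of 39734 features. Their levels were followed through RNA sequencing of 33 tissues from 6 adult female Murciano-Granadina goats, a Spanish dairy breed. The lactating goats were numbers 2, 3 and 6 and the dry goats were numbers 54, 64 and 73, with 1 library per goat and tissue. The tissues include 8 brain regions, the pineal gland, both lobes of the pituitary and 22 other tissues. No transgene, drug or diet is named for either state, and on age the labels say no more than that the animals were adults. The 6 goats recur in every tissue, so tissues are not independent samples of a state. Any other way in which the lactating and the dry goats differed cannot be told apart from lactation.

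Myelin is the lipid-rich membrane that oligodendrocytes wrap around axons in the brain and spinal cord, where it speeds conduction. White matter and the fibre tracts of the brainstem are rich in it, while the cortex and the cerebellar surface hold more cell bodies. Schwann cells make the myelin of peripheral nerves and share some of its proteins, among them MBP and MAG, whereas MOG, MOBP and OPALIN are textbook products of central oligodendrocytes. In bulk tissue, fewer cells of a type and less RNA per cell cannot be told apart.

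Levels are given as CPM, the count of a gene scaled to its library total, as mean ± SD over the 6 goats of a tissue (n = 6) unless stated otherwise. They are not corrected for gene length, so a level is compared between tissues and never between genes. The shallowest library held 1.31 M counts, the median one 4.63 M and the deepest 8.97 M, and features in the deposited lncRNA annotation took between 77.0% and 90.9% of them. A floor of 3 counts corresponds to between 0.335 and 2.29 CPM, and values near it are imprecise.

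Of the libraries of the brain, pineal gland and pituitary, 5 lacked marker genes of their labelled tissue, and results that rest on them are also given without them. SNAP25, a synaptic protein of neurons, stood at 2.60 CPM in the frontal neocortex of goat 2, against 76.1 to 237 CPM in the other 5 goats. GFAP, the astrocyte filament protein, stood at 1.30 CPM in the same library, against 18.4 to 84.9 CPM. In the hypothalamus of goat 2, SNAP25 stood at 1.30 CPM, against 13.5 to 45.2 CPM in the other goats. The hippocampus library of goat 3 was low in SNAP25 as well, but it is not among the 5 and was kept. TPH1, an enzyme of melatonin synthesis, reached 0, 0 and 0.419 CPM in the pineal libraries of lactating goats 2, 3 and 6, and 125, 57.1 and 100 CPM in those of dry goats 54, 64 and 73. The summed level of 8 pineal markers was 4.82 to 6.05 CPM in lactating goats and 134 to 226 CPM in dry goats, and SAG was at 0 in all 3 lactating libraries. Of these 5 libraries, 4 stand among the 14 that come out of tissue order at the end of the deposited table, for which the labels name no batch. All 6 libraries labelled neurohypophysis carried anterior lobe hormones, with 411 to 1680 CPM of GH1 (growth hormone), while AVP and OXT (the posterior lobe hormones) stayed at or under 0.916 CPM and GFAP at or under 2.96 CPM. The summed level of 6 neurohypophysis and pituicyte markers was 4.35 to 15.3 CPM in these libraries and 3.23 to 7.21 CPM in the adenohypophysis. The libraries labelled neurohypophysis thus carried anterior lobe transcripts, and how much posterior lobe tissue they held was not tested.

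**Figure D1:**
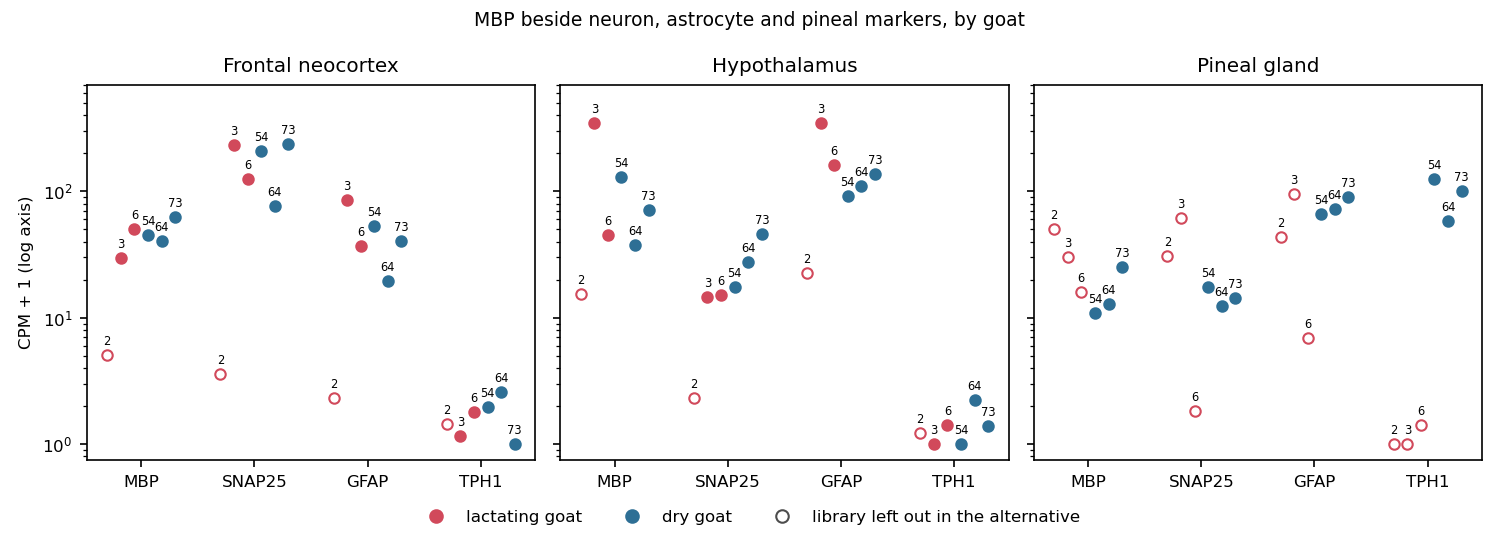
Level of MBP and of markers of neurons (SNAP25), astrocytes (GFAP) and pineal cells (TPH1) in CPM + 1 on a log axis, by goat number, in the frontal neocortex, hypothalamus and pineal gland. Open circles are the 5 libraries left out in the alternative; MBP stood at 4.12 CPM in the frontal neocortex of goat 2, and TPH1 was at or under 0.419 CPM in the 3 pineal libraries of lactating goats.

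Among the compact myelin proteins, MBP (myelin basic protein, which holds the inner faces of the membrane together) was highest in the brainstem. Its level was 444 ± 104 CPM in the bridge, the label for a brainstem region, with libraries from 310 through a median of 446 to 587 CPM. It was 406 ± 164 CPM in the medulla oblongata, 207 ± 200 CPM in the hippocampus, 136 ± 19.6 CPM in the rostral colliculus (a midbrain visual centre), 107 ± 124 CPM in the hypothalamus and 56.9 ± 44.5 CPM in the rhinencephalon (olfactory brain). The order went on with 38.0 ± 19.9 CPM in the frontal neocortex, 23.2 ± 14.8 CPM in the pineal gland and 19.2 ± 4.79 CPM in the cerebellar hemisphere. The pineal mean was 31.1 ± 17.4 CPM in lactating goats, whose libraries lacked pineal markers, and 15.3 ± 7.58 CPM in dry goats. In dry goats alone the pineal gland thus stood below the cerebellar mean of all goats. All 6 bridge libraries lay above all 6 of the frontal neocortex, whose libraries ran from 4.12 through a median of 41.9 to 61.8 CPM. Hippocampus and hypothalamus libraries were spread widely, with goat 3 highest in both at 592 and 347 CPM.

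Outside the brain and pineal gland MBP was low but present. It reached 1.85 ± 0.988 CPM in the adenohypophysis, 1.61 ± 1.38 CPM in the neurohypophysis and at most 5.74 CPM as the mean of another tissue, in the spleen. Of the 132 libraries of other tissues, 103 had at least 3 counts of it, the highest at 9.05 CPM.

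MOBP, another small basic protein of compact myelin, followed the same order at its upper end. It averaged 185 ± 47.2 CPM in the bridge, 149 ± 67.6 CPM in the medulla oblongata and 91.6 ± 70.3 CPM in the hippocampus. Its lowest brain level was 6.89 ± 1.55 CPM in the cerebellar hemisphere. Among the 22 other tissues no mean of MOBP was above 0.912 CPM (ovary), and 24 of 132 libraries had 3 counts or more.

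CLDN11, the claudin that forms the tight junctions between myelin turns, averaged 15.2 ± 7.45 CPM in the medulla oblongata, with libraries from 3.89 through a median of 16.2 to 22.4 CPM. It averaged 11.6 ± 5.57 CPM in the bridge and 2.31 ± 1.55 CPM in the cerebellar hemisphere. The highest mean outside the neural tissues was 2.0 CPM, in the adrenal cortex. CLDN11 is also known from testis and ear, neither of which is used here.

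The adhesion and surface proteins differed more among themselves. MAG, which sits on the innermost wrap and binds the axon, averaged 32.6 ± 6.23 CPM in the bridge and 31.3 ± 12.7 CPM in the medulla oblongata. In the cerebellar hemisphere MAG stood at 1.84 ± 0.974 CPM. It was above 0 in 11 of 132 libraries of other tissues and at 0 in all 6 of the adenohypophysis.

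OPALIN, a sialylated membrane protein of mature oligodendrocytes, peaked at 9.87 ± 1.98 CPM in the medulla oblongata, and its brain regions spanned a 4.13-fold range. It was lowest in the frontal neocortex among the brain regions, at 2.39 ± 1.10 CPM, and stood at 2.48 ± 1.79 CPM in the cerebellar hemisphere. Its pineal level was 7.75 ± 4.08 CPM, with 5.84, 9.60 and 0.419 CPM in lactating goats 2, 3 and 6, and 8.57, 10.7 and 11.4 CPM in dry goats 54, 64 and 73. Without the 5 libraries that lacked their markers, the pineal gland at 10.2 CPM came ahead of the medulla oblongata at 9.87 CPM. The mandibular lymph node had 3.21 CPM of OPALIN, the highest mean among the 22 other tissues.

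CNP, an enzyme of the cytoplasm-filled channels of myelin, averaged 48.1 ± 13.8 CPM in the medulla oblongata, 44 ± 8.75 CPM in the bridge and 7.51 ± 1.54 CPM in the cerebellar hemisphere. Every one of the 132 libraries of other tissues held some CNP, with means up to 11.4 CPM in the mandibular lymph node and 10.2 CPM in the spleen. ERMN, an actin-binding protein of the outer wraps, averaged 36.8 ± 13.9 CPM in the medulla oblongata and 1.81 ± 1.64 CPM in the cerebellar hemisphere. ERMN was above 0 in only 23 of the 132 other libraries, with no mean above 1.31 CPM (lung).

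MYRF, the membrane-bound transcription factor that switches on myelin genes, varied little between brain regions. Its means lay between 1.49 ± 1.0 CPM in the frontal neocortex and 3.89 ± 1.71 CPM in the medulla oblongata, a 2.61-fold range, against a 23.2-fold range for MBP. The highest means were 4.08 CPM in the spleen and 3.98 CPM in the mandibular lymph node. Spleen libraries ran from 1.5 to 8.01 CPM and overlapped those of every brain region. Without goat 3 the top mean of MYRF lay in a brain region. With library totals over features outside the lncRNA annotation it lay in the medulla oblongata (27.3 CPM on that scale), followed by the bridge (26.4 CPM).

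**Figure D2:**
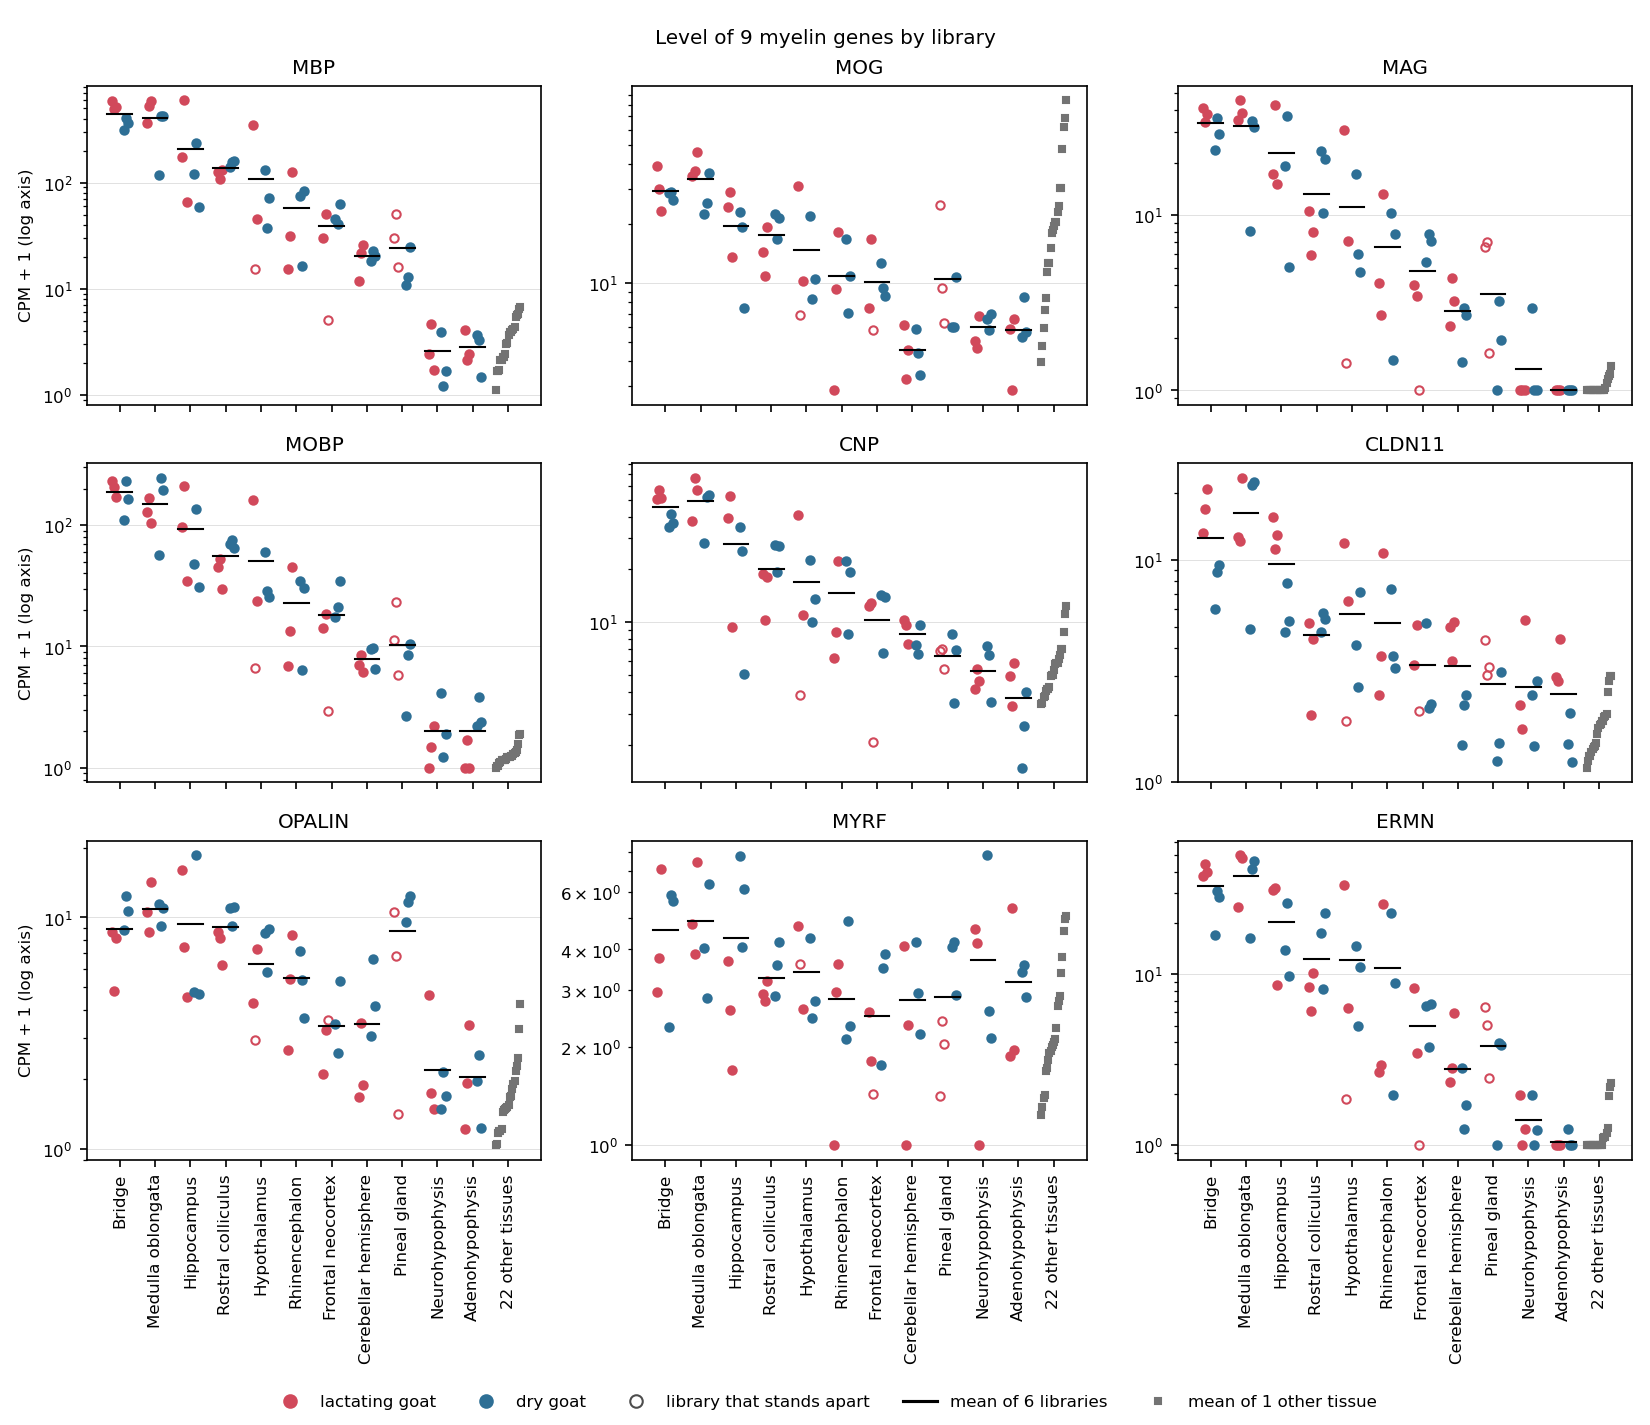
Level of each of the 9 genes in CPM + 1 on a log axis in 11 neural tissues, with lactating goats left of dry goats, the mean of 6 libraries as a line, open circles for the 5 libraries that stand apart, and 1 grey square for the mean of each of the 22 other tissues. The bridge and medulla oblongata head MBP, MOBP, MAG and ERMN, and several grey squares of MOG stand above its brain regions.

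Counted over the 9 genes, 7 had their highest tissue mean in a brain region, the exceptions being MYRF and MOG. The count was 6 without the 5 libraries. MYRF was no exception with library totals over features outside the lncRNA annotation. Within the brain the cerebellar hemisphere was the lowest region for 7 genes and the frontal neocortex for OPALIN and MYRF. In the authors' deposited table of tau, a score of tissue specificity between 0 and 1, MAG had 0.8535, ERMN 0.8305 and MOBP 0.8242, while MYRF had 0.4439 and MOG 0.3544.

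Neighbours in the order of levels were tested in pairs. For each gene the 11 neural tissues were ranked by mean, and each was tested against the next by an exact permutation test of 6 against 6 libraries on log2(CPM + 1). Of 90 neighbouring pairs, 0 passed a Benjamini-Hochberg adjusted p of 0.05 (two-sided), and 7 had an unadjusted p under 0.05. The lowest adjusted p in this exact permutation test was 0.0974, for MBP and for MOBP between the cerebellar hemisphere and the adenohypophysis, where the groups did not overlap. The smallest unadjusted p this design allows is 0.00216. Both of these pairs stood at that value and still did not pass over 90 pairs, so the count of 0 says little about single steps. The order is therefore a description of means. The contrasts that follow compare chosen pairs of tissues and do not test each step of the order.

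The comparison of the bridge with the frontal neocortex sets a brainstem region against the cortex. In edgeR's quasi-likelihood test, 8 of the 9 genes were higher in the bridge, against 3.8% of all 17914 genes tested that were higher and 5.22% that were lower. The median log2 fold change was 2.15 over the 9 genes and -0.01 over all genes. All 9 genes were tested, and each was higher in the bridge in 6 of 6 goats. The libraries of the regions did not overlap for 7 of them, and they overlapped for OPALIN and MYRF. The share of all genes with either trait was not counted, so these counts have no background beside them.

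MBP averaged 444 ± 104 CPM in the bridge and 38.0 ± 19.9 CPM in the frontal neocortex, a log2 fold change of 3.46 ± 0.388 (SE; edgeR adjusted p = 1.2e-05). MOBP averaged 185 ± 47.2 CPM in the bridge and 17.2 ± 10.2 CPM in the frontal neocortex, a log2 fold change of 3.35 ± 0.378 (edgeR adjusted p = 1.26e-05). MAG averaged 32.6 ± 6.23 CPM in the bridge and 3.80 ± 2.53 CPM in the frontal neocortex, where goat 2 had none (log2 fold change 3.02 ± 0.436, edgeR adjusted p = 0.000169). These 3 genes had the largest changes of the set. MOBP libraries ran from 109 through a median of 189 to 231 CPM in the bridge, and from 1.95 through 17.1 to 33.5 CPM in the frontal neocortex. MAG libraries ran from 22.7 through a median of 33.9 to 40.0 CPM in the bridge, and from 0 through 3.68 to 6.82 CPM in the frontal neocortex. For both genes the lowest bridge library lay above the highest of the frontal neocortex.

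ERMN differed by a log2 fold change of 2.81 ± 0.505 (edgeR adjusted p = 0.00132), CLDN11 by 2.15 ± 0.446 (0.00433) and CNP by 2.08 ± 0.375 (0.00132). OPALIN differed by 1.64 ± 0.358, with 7.93 ± 2.54 CPM in the bridge and 2.39 ± 1.10 CPM in the frontal neocortex (edgeR adjusted p = 0.00647). MOG differed by 1.53 ± 0.251 (edgeR adjusted p = 0.000585). MYRF averaged 3.61 ± 1.87 CPM in the bridge and 1.49 ± 1.0 CPM in the frontal neocortex and missed the threshold (log2 fold change 1.18 ± 0.518, edgeR adjusted p = 0.203). Without the 5 libraries 8 genes passed again, and the log2 fold change of MBP was 3.23.

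**Figure D3:**
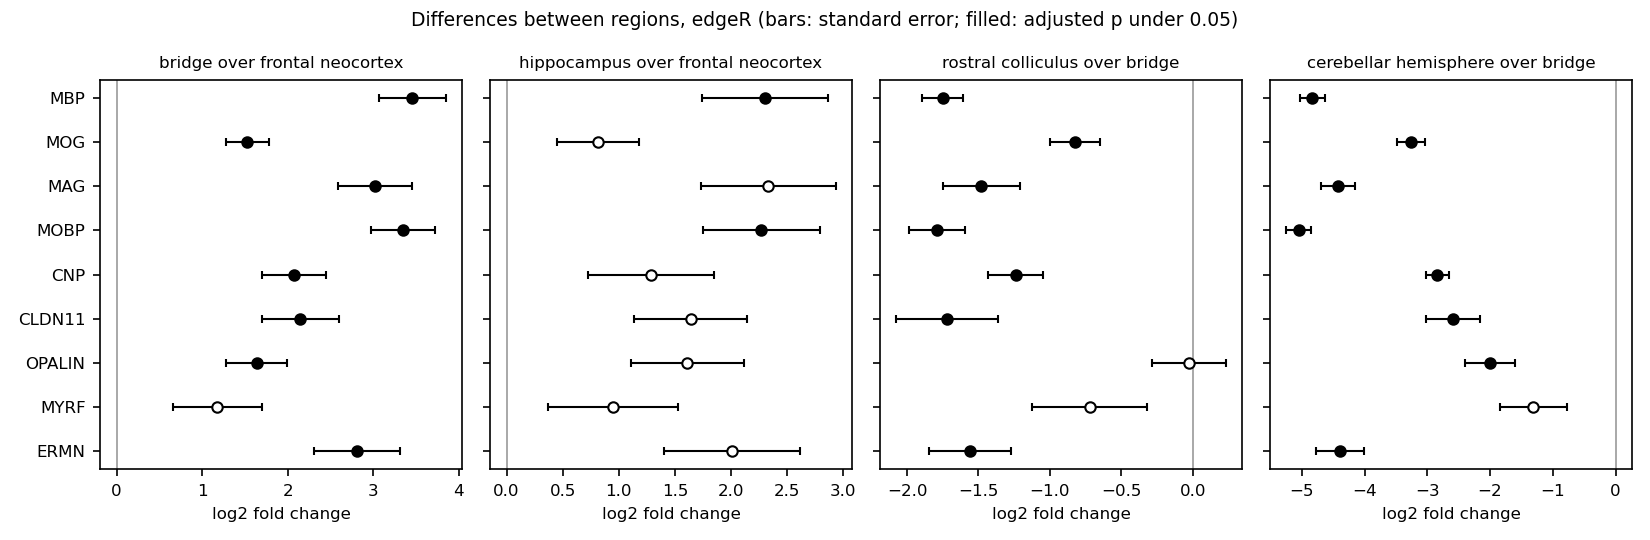
Log2 fold change with its standard error for each gene in 4 comparisons of regions (edgeR); filled circles passed an adjusted p of 0.05, and each panel has its own axis. The 8 filled circles in the bridge over frontal neocortex run from 1.53 for MOG to 3.46 for MBP, and in the cerebellar hemisphere over bridge from -5.05 for MOBP to -2.0 for OPALIN.

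Other genes of the pathway moved with the bridge to differing degrees. Of 25 genes on a list of other central myelin protein genes, 20 were tested, 10 were higher in the bridge and 1 was lower, with a median log2 fold change of 1.33. The lower one was CNTNAP4 (-1.61), whose place in myelin was not tested here. BCAS1, a marker of newly myelinating oligodendrocytes, averaged 65.4 ± 7.26 CPM in the bridge and 13.9 ± 5.56 CPM in the frontal neocortex (log2 fold change 2.14 ± 0.224, edgeR adjusted p = 5.63e-06). OMG and GPM6B, which neurons make as well, had log2 fold changes of 0.07 and 0.35 and did not pass. Of 11 genes of myelin lipid synthesis 8 were tested and 2 were higher, with a median of 0.205 (log2). They were CERS2, a ceramide synthase (1.53), and UGT8. UGT8, which makes galactosylceramide, averaged 25.5 ± 6.14 CPM in the bridge and 3.05 ± 1.64 CPM in the frontal neocortex (log2 fold change 2.87 ± 0.412, edgeR adjusted p = 0.000156). The fatty acid enzyme ELOVL7 and the sterol enzyme HMGCS1 had log2 fold changes of 0.08 and -0.11 and did not pass.

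Regulators and precursor genes did not pass this threshold. Of 9 transcription factors of the oligodendrocyte lineage, 4 were tested and 0 passed in edgeR, 2 of them with an unadjusted p under 0.05, with log2 fold changes of 0.07 for ZEB2, 0.30 for SOX10, 1.41 for OLIG1 and 1.31 for SOX8. Of 7 markers of oligodendrocyte precursors all were tested and 0 passed in edgeR, 1 with an unadjusted p under 0.05, with GPR17 at 20.6 ± 5.52 CPM in the bridge and 19.9 ± 10.2 CPM in the frontal neocortex. VCAN had 1.68, PTPRZ1 0.68 and MEGF11 0.36 as log2 fold change.

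Markers of other cells also differed between these regions, and their part in the myelin difference was not tested. Of 8 astrocyte markers 2 were higher in the bridge and 1 was lower, with GFAP at 411 ± 108 CPM in the bridge and 38.8 ± 28.8 CPM in the frontal neocortex (log2 fold change 3.17 ± 0.565, edgeR adjusted p = 0.00122). AQP4 was higher (0.97) and SLC1A2 lower (-1.99), and SLC1A3 did not pass (-0.81). Of 10 neuron markers tested, NEFH was higher (1.18 ± 0.358) and NEFM lower (-0.73 ± 0.204) on the log2 scale. SNAP25, MAP2 and NEFL had log2 fold changes of -0.92, -0.45 and 0.76 and did not pass. Of 4 microglia markers tested CX3CR1 was higher (1.66) and P2RY12 lower (-1.16), while CSF1R and AIF1 did not pass (0.29 and 0.64). Of 4 Schwann cell markers tested 0 passed in edgeR, 2 with an unadjusted p under 0.05, with PRX at 1.17, DHH at -0.33, GLDN at 0.17 and SCN7A at -1.17. The median log2 fold change was 0.54 for the astrocyte list, -0.47 for neurons, 0.46 for microglia and -0.08 for Schwann cells. The summed neuron markers ran from 279 to 730 CPM in the bridge and from 118 to 765 CPM in the frontal neocortex, and the summed astrocyte markers from 365 to 719 CPM in the bridge and from 21.5 to 389 CPM in the frontal neocortex.

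The cerebellar hemisphere had less of most of these transcripts than the bridge. Of the 9 genes, 8 were lower in the cerebellar hemisphere (edgeR), against 18.6% of all 17949 genes lower and 18.1% higher, and the median log2 fold change was -3.26 over the 9 genes. MOBP averaged 6.89 ± 1.55 CPM in the cerebellar hemisphere and 185 ± 47.2 CPM in the bridge (log2 fold change -5.05 ± 0.195, edgeR adjusted p = 1.1e-13). MBP averaged 19.2 ± 4.79 CPM in the cerebellar hemisphere and 444 ± 104 CPM in the bridge (-4.83 ± 0.192, edgeR adjusted p = 1.85e-13). MAG and ERMN changed by -4.42 and -4.39, MOG by -3.26, CNP by -2.84, CLDN11 by -2.59 and OPALIN by -2.0 on the log2 scale. MYRF again missed the threshold, at -1.31 ± 0.537 (edgeR adjusted p = 0.0630). Of the 20 tested genes of the list of other central myelin proteins, 13 were lower and 1 higher, with a median of -2.06, and of 7 tested genes of myelin lipid synthesis 6 were lower. Of 4 lineage transcription factors tested 3 were lower (OLIG1 -2.36, ZEB2 -2.02 and SOX10 -1.05, log2). Of 6 precursor markers 4 were lower, while GPR17 was higher (1.24). Astrocyte markers were lower as well, 6 of 8, with a median of -2.09 and GFAP at -3.32. Of 10 neuron markers 4 were lower (NEFH, NEFL, MAP2 and STMN2), while GAD1 (4.70) and RBFOX3 (1.33) were higher. The bridge mean of GAD1 was 0.316 ± 0.408 CPM, under the floor of 3 counts, so the size of its change is imprecise. Of 4 microglia markers CX3CR1 was lower (-2.10), and P2RY12 and CSF1R were higher. Of 4 Schwann cell markers PRX and SCN7A were lower. The part of these markers in the myelin difference was not tested.

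The rostral colliculus was also set against the bridge. Of the 9 genes 7 were lower in the rostral colliculus than in the bridge (edgeR), against 3.67% of all 18225 genes lower and 3.48% higher. MBP averaged 136 ± 19.6 CPM in the rostral colliculus and 444 ± 104 CPM in the bridge (log2 fold change -1.75 ± 0.143, edgeR adjusted p = 4.21e-08). The other 6 changed by between -0.82 (MOG) and -1.79 (MOBP). OPALIN averaged 8.05 ± 1.85 CPM in the rostral colliculus and 7.93 ± 2.54 CPM in the bridge, higher in the rostral colliculus in 4 of 6 goats, with a log2 fold change of -0.03 ± 0.258 (edgeR adjusted p = 0.974). MYRF had -0.72 ± 0.40 (edgeR adjusted p = 0.354). Of 20 tested genes on the list of other central myelin proteins 9 were lower and CNTNAP4 was higher (1.29, log2), with a median of -0.58 over the 20, against -0.01 over all genes. Of 9 lipid synthesis genes 3 were lower, UGT8 (-1.53) among them, and the median over 5 lineage transcription factors was -0.455. Markers of other cells differed in this pair too. Of 8 astrocyte markers GFAP (-1.88) and AQP4 (-0.68) were lower on the log2 scale. Of 10 neuron markers GAD1 (6.71) and SLC17A6 (1.40) were higher and NEFH was lower (-1.34). GAD1 averaged 0.316 ± 0.408 CPM in the bridge, under the floor of 3 counts. It passed the filter on low counts only through the rostral colliculus, and the size of its change is imprecise. Of 4 microglia markers P2RY12 was higher (0.79) and CX3CR1 lower (-1.09). Of 7 precursor markers VCAN was lower (-1.05). The part of these markers was not tested.

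Between the medulla oblongata and the bridge 0 of the 9 genes passed in edgeR, against 0.272% of 18384 genes higher and 0.539% lower. None had an unadjusted p under 0.05 in that test, and DESeq2 also called 0. The log2 fold changes ran from -0.33 (MOBP) to 0.35 (CLDN11) with standard errors of 0.167 to 0.403, so differences of that size were not detectable here.

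The forebrain regions varied more between goats. Hippocampus libraries were also shallow, with 1.31 to 2.6 M counts except for goat 73 (4.66 M), against a median of 4.63 M over all libraries. In the shallow ones 3 counts correspond to between 1.15 and 2.29 CPM. The part of depth in the hippocampus results was not tested. In the hippocampus over the frontal neocortex MBP and MOBP passed in edgeR, 2 of 9 genes against 0.685% of 17229 genes higher and 1.57% lower. MBP averaged 207 ± 200 CPM in the hippocampus and 38.0 ± 19.9 CPM in the frontal neocortex, higher in 5 of 6 goats (log2 fold change 2.30 ± 0.563, edgeR adjusted p = 0.0379). MOBP averaged 91.6 ± 70.3 CPM in the hippocampus and 17.2 ± 10.2 CPM in the frontal neocortex (2.27 ± 0.521, edgeR adjusted p = 0.0262). Neither call held with the goat as a block, which gave edgeR adjusted p = 0.251 for MBP and 0.193 for MOBP and called 0 genes of the 9. Leaving out goat 3, 6, 54 or 64 also gave 0 calls, and leaving out goat 2 or 73 gave 3. Without the 5 libraries 4 genes passed (MBP, MOBP, MAG and ERMN), against 3.05% of 17798 genes. The hippocampus library of goat 3, with the highest MBP of all at 592 CPM, had 6.45 CPM of SNAP25, against 41.9 to 104 CPM in the other 5, and its part in the result was not tested beyond leaving out goat 3. This library is not among the 5 that lacked markers, so the 4 calls without those still include it.

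In the hypothalamus and in the rhinencephalon over the frontal neocortex, 8 genes each were tested and 0 passed in edgeR, in DESeq2 or in the other settings tried. At an unadjusted p under 0.05 stood 1 gene for the hypothalamus and 0 for the rhinencephalon. The background was 1.77% higher and 3.26% lower for the hypothalamus, and 1.59% and 2.36% for the rhinencephalon. The log2 fold changes of the hypothalamus ran from 0.34 to 1.26, and those of the rhinencephalon from -0.08 to 1.06.

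In the pineal gland over the frontal neocortex 0 of 8 tested genes passed in edgeR or DESeq2 and 2 had an unadjusted p under 0.05, against 0.0115% of 17416 genes higher and 0.121% lower. Without the 5 libraries, which leaves the 3 dry goats in the pineal gland and 5 goats in the frontal neocortex, 5 passed against 24.1% of 19896 genes in either direction. MBP, MOBP, MAG and CNP were then lower, with log2 fold changes of -1.94, -2.09, -2.46 and -1.48, and OPALIN was higher at 1.73 (edgeR adjusted p = 0.00999). Lactation state is not balanced in that comparison. Leaving out goat 2 alone gave 2 calls.

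Few of the genes could be tested in the remaining pairs. Between the neurohypophysis and the adenohypophysis MOG and CNP were tested and did not pass. Of 17891 genes edgeR called 0.0% and DESeq2 0, with 331 at an unadjusted p under 0.05. Between the adrenal medulla and the adrenal cortex 3 were tested and 0 passed in edgeR or DESeq2, 1 with an unadjusted p under 0.05. Of 17235 genes edgeR called 0.0% and DESeq2 67, with 1547 at an unadjusted p under 0.05.

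MOG, the surface glycoprotein of the outermost myelin wrap, behaved unlike the other members outside the brain. Its highest mean was 83.3 ± 16.8 CPM in the lung, with 106, 80.7 and 95.9 CPM in lactating goats and 74.5, 85.0 and 57.7 CPM in dry goats. Subcutaneous fat followed at 67.9 ± 25.7 CPM, the colon at 60.7 ± 31.5 CPM and neck skin at 47.0 ± 34.3 CPM. Among brain regions the medulla oblongata came first, with 32.7 ± 8.63 CPM. All 6 lung libraries lay above all 6 of the medulla oblongata, whose highest was 45.4 CPM.

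Across the 11 neural tissues the means of MOG followed those of MBP (Pearson r = 0.909 on log2(CPM + 1), n = 11 tissues), and across the 22 other tissues they did not (r = 0.221, n = 22). These points share goats and library totals. In the lung MBP averaged 4.76 CPM, CLDN11 1.83 CPM, ERMN 1.31 CPM and MAG 0.243 CPM, each below its level in the bridge.

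In the RefSeq annotation of assembly ARS1.2, MOG overlaps its neighbour ZFP57, a zinc finger gene known in mouse and human for guarding imprinted methylation, by 469 bases. ZFP57 had 382 ± 79.0 CPM in the bridge, 347 ± 38.1 CPM in the medulla oblongata, 383 ± 251 CPM in the hippocampus and 28.8 ± 3.48 CPM in the cerebellar hemisphere. Outside the neural tissues its mean did not pass 2.30 CPM. The means of ZFP57 followed MBP over all 33 tissues (r = 0.954, n = 33), more closely than MOG did (r = 0.105). No label states whether reads were counted by strand or how those in the overlap were assigned, so reads of MOG and ZFP57 cannot be told apart with certainty.

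**Figure D4:**
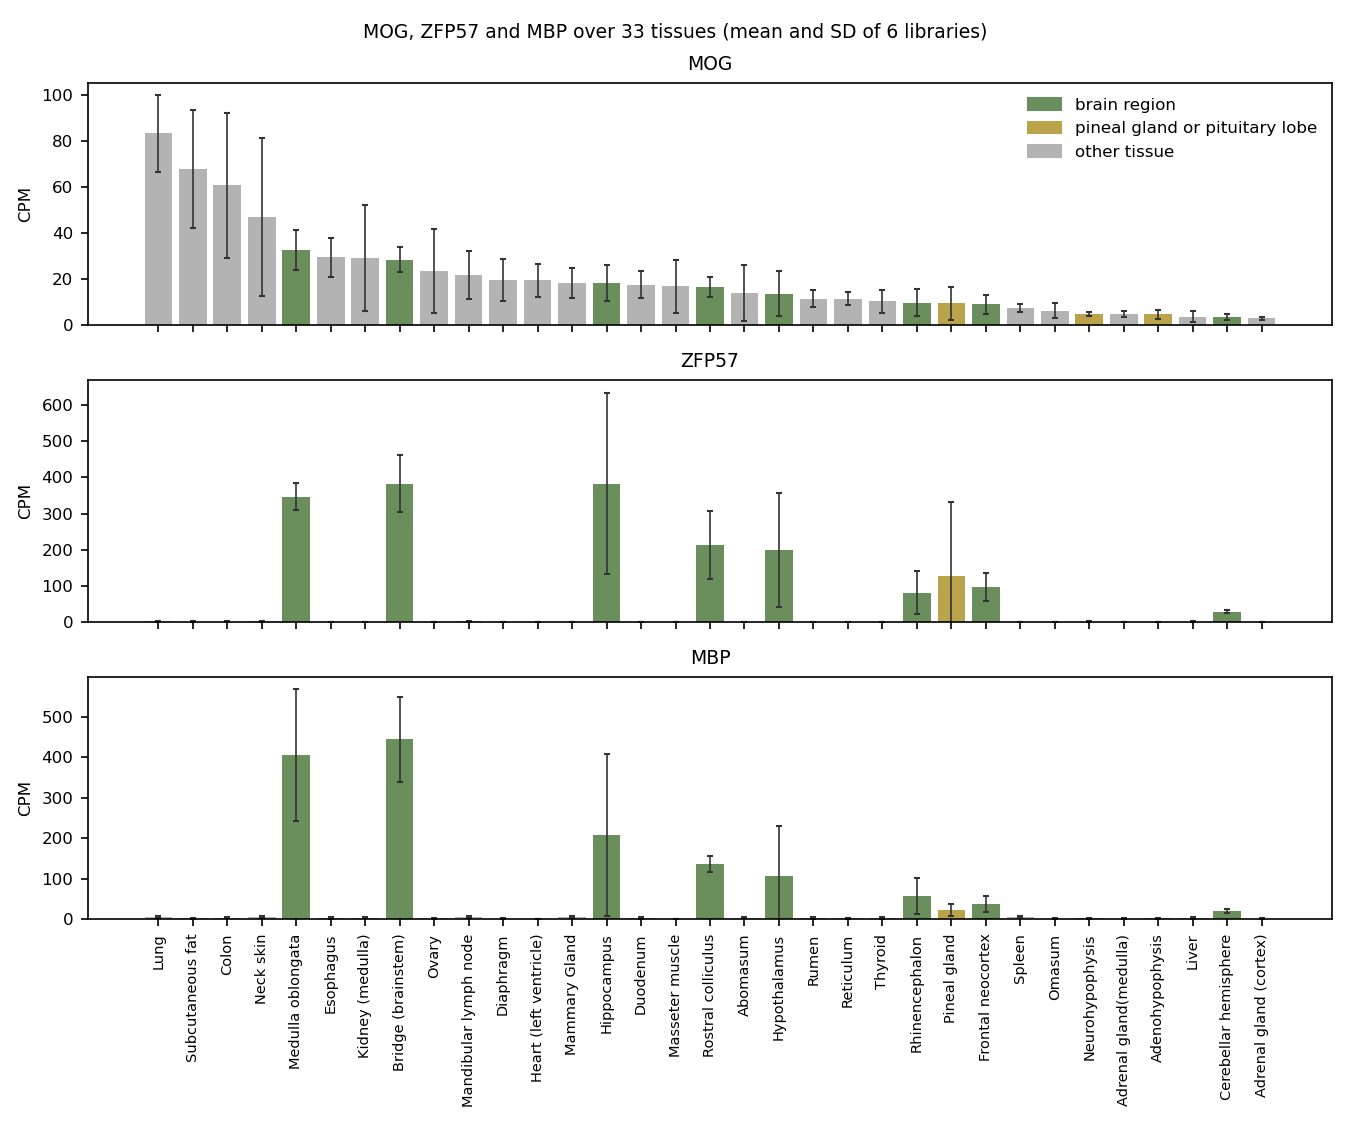
Mean CPM with SD over 6 libraries (bars cut at 0) for MOG, its annotated neighbour ZFP57 and MBP in 33 tissues ordered by MOG; colours mark brain regions, the pineal gland and pituitary lobes, and other tissues. MOG leads in lung (83.3 CPM), whereas ZFP57 and MBP rise in brain regions and the pineal gland.

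How the members vary together was described in 2 ways. Over the 33 tissue means, the correlation of a gene with the mean standardised profile of the other 8 was 0.967 for MBP, 0.967 for MAG, 0.950 for ERMN, 0.935 for MOBP, 0.912 for CLDN11, 0.891 for CNP, 0.876 for OPALIN, 0.559 for MYRF and 0.0448 for MOG. Among the 48 brain libraries, after the mean of each region was taken away, it was 0.928 for MBP and between 0.801 and 0.893 for MOBP, CNP, ERMN, MAG and MOG. It was 0.596 for CLDN11, 0.314 for OPALIN and 0.168 for MYRF. A goat with a library rich in MBP within a region thus also had more MOBP, CNP, ERMN, MAG and MOG there. MOG therefore ran with the set inside the brain and apart from it over the body. These points share goats, library totals and dissections. Without the 2 brain libraries that lacked markers the value was 0.907 for MBP, 0.80 for MAG and 0.14 for MYRF.

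Outside the set, the genes most alike were ranked by the correlation of their 33 tissue means with the mean profile of the 9 genes, over 13733 genes outside the lncRNA annotation. Among the 10 highest were C26H10orf90 (0.954), COL9A2 (0.954), OLIG1 (0.950), PRR18 (0.940), PLCXD1 (0.938), HEPACAM (0.937), HAPLN2 (0.933), GPR149 (0.931) and ZFP57 (0.926). OLIG1 is a lineage transcription factor and HAPLN2 a matrix protein of the nodes of Ranvier. COL9A2 averaged 62.1 CPM in the bridge, 10.8 CPM in the frontal neocortex and 7.55 CPM in the cerebellar hemisphere, with none of the 22 other tissues above 1.61 CPM. PLCXD1 averaged 82.4 CPM in the bridge and reached 11.1 CPM in another tissue. Between 6 and 9 of these 10 stayed in the list under other scalings, pseudocounts and filters or without any 1 goat.

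Lactating and dry goats were compared in each tissue, 3 against 3, since state is the factor the labels give within a tissue. Of 297 pairs of a gene and a tissue, 140 passed the filter on low counts, and edgeR called 2, both of MOG, against 1.90% of all gene and tissue pairs tested. In the 11 neural tissues 0 of 79 tested pairs passed, against 1.42% of all genes there, with 10 at an unadjusted p under 0.05. DESeq2 called 5 pairs against 3.65% of all, and its call in a neural tissue was MBP in the bridge.

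In the kidney medulla MOG had 53.8, 37.1 and 57.0 CPM in lactating goats 2, 3 and 6, and 11.9, 10.9 and 4.28 CPM in dry goats 54, 64 and 73. Every lactating library lay above every dry one. The log2 fold change was 2.09 ± 0.338 (edgeR adjusted p = 0.00130), in a tissue where 6.02% of 18413 genes were higher. These kidney libraries differed in their markers too. SLC12A1, a transporter of the thick ascending limb, had 207, 570 and 564 CPM in lactating goats and 47.0, 25.9 and 46.2 CPM in dry goats. LRP2, a receptor of the proximal tubule in the cortex, had 44.5, 169 and 37.0 CPM in lactating goats and 1390, 668 and 886 CPM in dry goats. The part of these markers in the MOG result was not tested.

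In the colon the direction was the opposite. MOG had 26.3, 36.2 and 39.3 CPM in lactating goats, and 104, 88.4 and 69.8 CPM in dry goats, again without overlap. The log2 fold change was -1.61 ± 0.250 (edgeR adjusted p = 0.00544), against 0.915% of 18574 genes lower. CDX2, an intestinal transcription factor, had 7.56 to 11.4 CPM in lactating goats and 3.44 to 5.08 CPM in dry goats, while VIL1 of the epithelium and MYH11 of smooth muscle overlapped between the states. The part of these markers was not tested either.

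**Figure D5:**
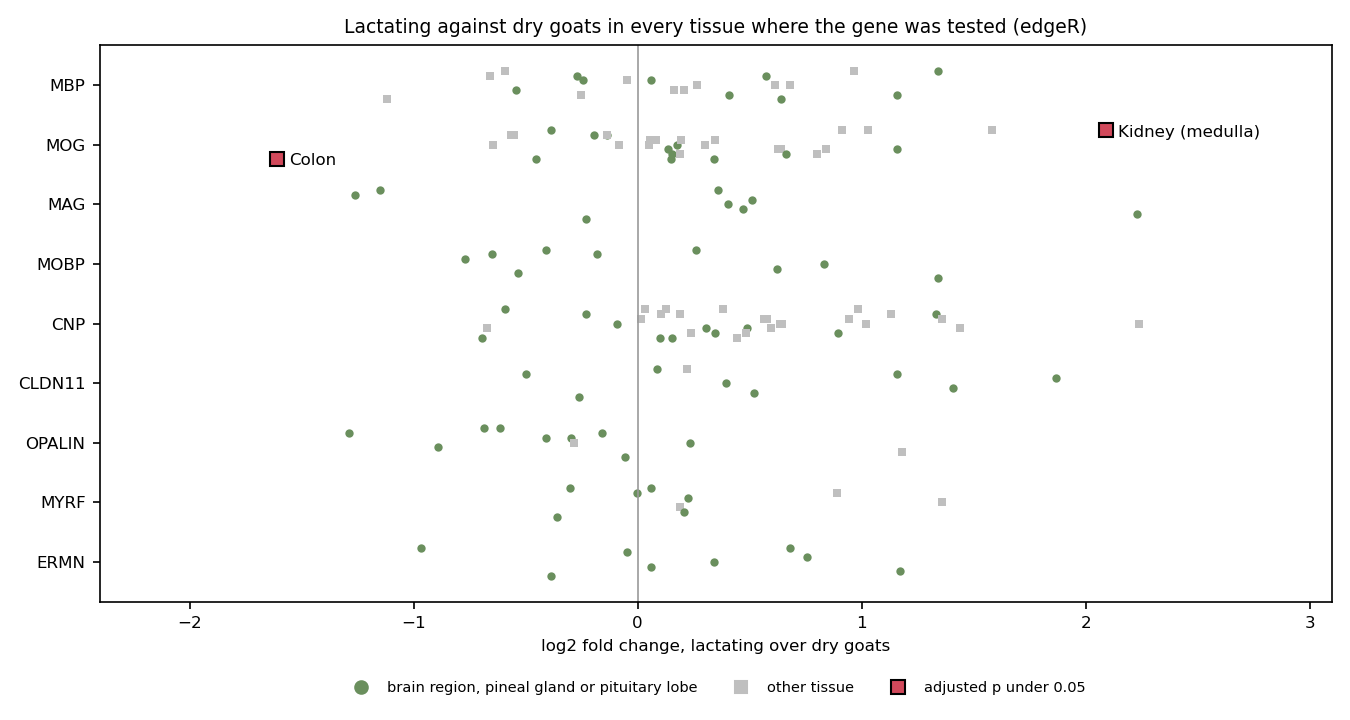
Log2 fold change of lactating over dry goats for every gene and tissue that could be tested (edgeR, 3 against 3 goats), with circles for neural tissues and squares for others. The 2 outlined squares passed an adjusted p of 0.05: MOG in the kidney medulla (2.09) and in the colon (-1.61).

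Within the brain the lowest adjusted p was that of MBP in the bridge. MBP had 587, 491 and 515 CPM in lactating goats 2, 3 and 6, and 310, 401 and 360 CPM in dry goats 54, 64 and 73, so the states did not overlap. The log2 fold change was 0.57 ± 0.143 and did not pass in edgeR (adjusted p = 0.116). DESeq2 gave an adjusted p of 0.0166 and edgeR without the filter on low counts 0.00664, and over all other settings, each goat left out included, the edgeR value stayed between 0.109 and 0.462. CLDN11 in the bridge had 12.2, 15.9 and 19.9 CPM in lactating goats, and 5.02, 7.84 and 8.43 CPM in dry goats, again without overlap. Its log2 fold change was 1.16 ± 0.314 (edgeR adjusted p = 0.156), with an adjusted p of 0.0298 without the filter and 0.064 in DESeq2. MBP in the hippocampus, at 173, 592 and 65.2 CPM in lactating goats and 119, 235 and 58.3 CPM in dry goats, overlapped between the states. Its log2 fold change was 1.16 ± 0.690 (edgeR adjusted p = 0.960), with an adjusted p of 0.00184 without the filter, and it was -0.06 without goat 3. In the rostral colliculus MBP lay the other way, with 125, 106 and 131 CPM in lactating goats and 140, 154 and 159 CPM in dry goats.

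Whether the step between these regions differed by state was tested with an interaction term. For MBP the rostral colliculus over bridge difference was lower by -0.81 ± 0.196 (log2) in lactating than in dry goats, which did not pass (edgeR adjusted p = 0.753). Over 10 pairs of tissues 79 interactions of the 9 genes were tested, 0 passed in edgeR or DESeq2 and 8 had an unadjusted p under 0.05, against 0.159% of all genes called. Without the filter on low counts 4 genes passed in this pair of regions (MBP, MOBP, MAG and ERMN), against 0.240% of 36642 genes.

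In the other neural tissues the gene with the lowest adjusted p in edgeR was MBP in the pineal gland (log2 fold change 1.34, adjusted p = 0.184), where lactating libraries lacked pineal markers and 7.97% of all genes passed. It was CLDN11 in the cerebellar hemisphere (1.87, edgeR adjusted p = 0.256), with 2.49 to 4.23 CPM in lactating goats and 0.460 to 1.45 CPM in dry goats. It was CLDN11 again in the hippocampus (1.41, 0.960), with 10.2 to 14.6 CPM in lactating goats and 3.75 to 6.88 CPM in dry goats. In the remaining tissues it was CNP in the adenohypophysis (1.33, edgeR adjusted p = 0.346), the neurohypophysis (-0.23, 0.902) and the frontal neocortex (-0.09, 1.0), MAG in the rostral colliculus (-1.15, 0.462), MOG in the medulla oblongata (0.34, 0.904) and the rhinencephalon (-0.45, 1.0), and OPALIN in the hypothalamus (-0.89, 0.915).

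A single value per goat over the 8 brain regions was compared between the states with limma. Of the 9 genes 0 passed and 1 had an unadjusted p under 0.05. Of all 26096 genes 23 passed (0.0881%) and 2770 had an unadjusted p under 0.05. OPALIN had the largest difference after CLDN11, at -0.40 ± 0.171 in log2 CPM (lactating minus dry, limma adjusted p = 0.436). CLDN11 had 0.50 ± 0.236 (limma adjusted p = 0.486), and MBP had 0.01 ± 0.256 (limma adjusted p = 0.993). The value of MBP rested on single goats, at 0.39 without goat 2 (limma adjusted p = 0.241) and -0.27 without goat 3 (limma adjusted p = 0.678). Without the libraries that lacked markers 0 of the 9 genes passed in limma and 3 had an unadjusted p under 0.05, namely CLDN11 (0.63), OPALIN (-0.38) and MYRF (-0.38), while MBP had 0.22. Under the same unadjusted p stood 2795 of all 26211 genes in that fit. Differences of the size of these standard errors were not detectable with 3 goats per state.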

How the data were processed

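Libraries were made from total RNA (RiboPure extraction) with a strand-specific VAHTS Universal V8 kit, per the labels' protocols. STAR, StringTie and edgeR are named in the submitters' processing notes, without versions or roles; no label names the genome build. The counts deposited by the authors are expected counts, of which 36.9% of the values above 0 are not whole (tolerance 1e-06). These were rounded for the edgeR and DESeq2 fits and left unrounded for limma. The deposited natural log offsets, which join library size and gene length, served only as an alternative scaling. The authors deposited tau as a fraction from 0 to 1, with no formula.

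From the counts, CPM (counts per 1e6) was computed with each library's total. Pairs of tissues (6 against 6), states within a tissue (3 against 3) and their interactions were fitted over all genes with edgeR 4.0.16 (R 4.3.3): filterByExpr with a minimum count of 10, TMM, quasi-likelihood F-test, Benjamini-Hochberg at 0.05, two-sided. The standard error is the log2 fold change over the square root of F. Brain-wide state effects used limma 3.58.1 (trended eBayes) on log2 CPM averaged per goat (prior count 2), for genes reaching 1 CPM on average in some region. DESeq2 1.42.0 was an alternative. Simulated data were used first for edgeR in the bridge over frontal neocortex and in the bridge by state, and for the limma step. The other fits were not tested on simulated data. Neighbouring tissues used exact permutation tests on log2(CPM + 1).

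The goats pair the tissues, per the labels; the main fits ignore this and the alternative adds goat as a block. Residual profiles of the same goat correlated between -0.348 and 0.736 over the pairs of tissues. The 9 genes, the gene lists, the markers and the tests were chosen with earlier results of these data known. All 9 genes are named with their levels; other genes named are up to 4 per list with the highest mean in bridge and frontal neocortex, and the 10 most alike, of which some are not reported here; other called genes of the lists, CLDN11 in the bridge and MBP in the hippocampus by state, ZFP57, the kidney and colon markers and the 5 libraries left out were chosen after values were seen. Names and neighbours came from RefSeq (ARS1.2). Near-identical copies and overlapping genes may share reads. P-values measure the spread between goats. Floors cover counting error only.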

Additional observations from a re-analysis of the deposited data

Results flagged for a closer look

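Single libraries far from the other 5 of their tissue were looked for in 84 groups of a gene and a tissue with a mean of at least 5 CPM, and 8 were found, where chance flags about 1 in 20 groups. MBP in the hippocampus of lactating goat 3 stood at 592 CPM, with the next library at 235 CPM. The same goat was high in the hypothalamus for MBP (347 CPM, next 129 CPM) and for MOBP (159 CPM, next 58.9 CPM), and in the pineal gland for MOG (23.8 CPM, next 9.73 CPM). MAG in the medulla oblongata of dry goat 54 was low at 7.14 CPM, with the next at 30.9 CPM. MOG in the duodenum of lactating goat 2 was low at 6.32 CPM (next 18.3 CPM), while CNP of that goat was high in the adrenal medulla (13.2 CPM, next 6.46 CPM) and in the liver (11.7 CPM, next 5.5 CPM).

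The difference in MOG between lactating and dry goats was set side by side in the kidney medulla and colon, the tissues picked because their calls ran in opposite directions. The log2 fold change of lactating over dry goats was larger by 3.71 ± 0.438 in the kidney medulla than in the colon (edgeR interaction term over the same 6 goats, adjusted p = 5.43e-05 over 21479 genes, of which 1114 passed). The fit had no goat term, although each goat gave a library of both tissues. Since the tissues were picked by their calls, the test restates that choice and is no independent support. The kidney libraries also differed by state in LRP2 (44.5, 169 and 37.0 CPM in lactating goats, 1390, 668 and 886 CPM in dry goats) and in SLC12A1 (207, 570 and 564 CPM in lactating goats, 47.0, 25.9 and 46.2 CPM in dry goats), and state cannot be told apart from other differences between these goats. In all 3 lactating goats MOG was above the dry goats in the kidney medulla and below them in the colon.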

How the results depend on the processing

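Member calls over the 10 pairs of tissues numbered 25, and between 22 and 29 without any 1 goat. The pairing by goat, fitted as a replicate block, gave 23, with 0 calls in the hippocampus over frontal neocortex; it changed no other call of a gene of the set past the threshold in these pairs. That pair gave 6 calls in DESeq2, 4 without a filter, 1 with the deposited offsets, 4 without the 5 libraries and 0 to 3 without 1 goat; the pineal gland over frontal neocortex gave 5 without the 5 libraries and 0 to 2 without 1 goat. No paired analysis was possible because goats are nested in states for lactating against dry goats. There, 2 calls became 5 with DESeq2, 9 without a filter, 4 without lncRNA features and 2 to 5 without 1 goat; both MOG calls remained in each of these. Interaction calls were 4 without a filter and 0 otherwise. The 10 most alike genes shared 6 with the list under TMM scaling, under totals without lncRNA features and with a pseudocount of 0.1. Genes with their top mean in a brain region numbered 7 or 8 without 1 goat.

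Over all genes, calls between tissues were 11657, and 5522 without lncRNA features (fewer genes tested), 18035 without the 5 libraries and 8919 to 12283 without 1 goat. State calls were 10991, and 21095 with DESeq2, 25745 without a filter, 6475 without lncRNA features and 6136 to 11049 without 1 goat. Interaction calls were 331, and 932 with DESeq2, 988 without a filter, 73 without lncRNA features, 2 without the 5 libraries and 66 to 771 without 1 goat. Brain-wide state calls were 23, and 15 without TMM, 2 without a filter, 0 without the 5 libraries (2795 at an unadjusted p under 0.05 in limma) and 7 to 48 without 1 goat. For the other changes the cause was not tested. Of 586 refits of 46 single values of the 9 genes, 12 lost and 35 gained a call; 2 values without a call in the main setting changed sign without 1 goat, MBP in the hippocampus (-0.0598 to 1.81, log2 lactating over dry) and MOG in the ovary (-0.24 to 2.0). Totals as low as 1.31 M counts limit what can be seen of genes under 2.29 CPM, MYRF among them.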

Other observations

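Features named for introns of the myelin genes differed in where they were highest. MBP-IT3, which did not pass the filter on low counts in any of the 10 pairs of tissues, had its highest mean in the bridge, as MBP had, at 1.59 ± 0.709 CPM (SD, n = 6), against 0.271 ± 0.422 CPM in the frontal neocortex. MBP-IT1 was highest in the abomasum (12.6 ± 9.80 CPM) and the liver (10.2 ± 2.45 CPM), and CLDN11-IT1 in the duodenum (9.74 ± 2.36 CPM). MBP-IT2 did not pass a mean of 3.01 CPM in any tissue. ZFP57-AS1, named as antisense to the neighbour of MOG, had its highest mean in the lung at 13.6 ± 4.77 CPM. MOG was highest there as well. The adrenal cortex followed for ZFP57-AS1 at 11.4 ± 10.6 CPM, whereas MOG averaged 2.98 ± 0.693 CPM in that tissue. ZFP57-AS1 had 11 ± 5.0 CPM in the colon and 10.5 ± 5.21 CPM in subcutaneous fat.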
